A study of Homo sapiens with 4 samples.

Results

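RNA polymerase I and RNA polymerase III, with the factors that bring them to their promoters, are represented here by 36 human genes. The members were given as a list of symbols, with no measured value in the rule, and each symbol matched 1 row of the deposited count table. The list was chosen with earlier results of these data known, so counts over it are descriptions. These 36 of 78932 Ensembl gene rows had counts above 0 in every library, and all 36 were among the 19511 genes that passed the filter on low counts. They lie on 16 chromosomes. By role, 6 encode subunits of RNA polymerase I alone, 2 encode subunits shared by RNA polymerases I and III, and 6 encode RNA polymerase I initiation factors. Another 10 encode RNA polymerase III subunits, 4 the initiation factor TFIIIB, 7 the factors TFIIIA and TFIIIC, and 1 the repressor MAF1.

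The study compared 2 groups of RPMI 8226 cells, a human multiple myeloma line, by RNA sequencing of 2 libraries each. One group received an antisense oligonucleotide with locked nucleic acid sugars (LNA ASO, which pairs with a target RNA) against CELF2 at 5 nM, and the other a control LNA ASO whose dose the labels do not give. Both were collected at 72 hours and carried no other allele or agent that the labels name. The single line, the unknown meaning of the library numbers (replicate or oligonucleotide) and the absence of any label for separate cultures limit the comparison, so the p-values speak for the spread between 2 libraries per group, part or all of which may be technical. These are bulk libraries, in which fewer cells with a transcript and less of it per cell cannot be told apart.

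RNA polymerase I transcribes the repeated ribosomal DNA into the precursor of the large ribosomal RNAs, in the nucleolus. RNA polymerase III makes short untranslated RNAs, among them transfer RNAs, 5S ribosomal RNA, U6 and 7SL. Both enzymes set the supply of ribosomes and transfer RNAs, on which plasma cells and myeloma cells, as secretory cells, draw heavily. Their output is known to follow nutrient and growth signals, through factors such as RRN3 for RNA polymerase I and MAF1 for RNA polymerase III.

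Promoter windows of 250 bases before the RefSeq start (GRCh38.p14) were found for 30 of the 36 members. The sequences are shown for POLR1G and POLR3K, the members with the smallest adjusted p on the RNA polymerase I and III sides, and for POLR3GL, the paralog of POLR3G, which did not pass the test. Each is printed 5′ to 3′ on the gene's own strand, with the motifs found in capitals.
POLR1G, chr19:45406394-45406643, plus strand: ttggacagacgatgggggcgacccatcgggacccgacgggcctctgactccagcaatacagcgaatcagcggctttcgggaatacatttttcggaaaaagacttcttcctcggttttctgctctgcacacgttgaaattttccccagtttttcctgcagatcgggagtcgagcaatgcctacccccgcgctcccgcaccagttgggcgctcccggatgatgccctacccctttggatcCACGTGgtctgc
POLR3K, chr16:53609-53858, minus strand: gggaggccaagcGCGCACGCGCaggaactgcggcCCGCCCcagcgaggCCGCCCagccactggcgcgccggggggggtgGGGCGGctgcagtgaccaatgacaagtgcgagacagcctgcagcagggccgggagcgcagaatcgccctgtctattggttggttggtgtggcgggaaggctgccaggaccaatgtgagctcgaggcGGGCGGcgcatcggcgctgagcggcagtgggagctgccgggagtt
POLR3GL, chr1:145964440-145964689, plus strand: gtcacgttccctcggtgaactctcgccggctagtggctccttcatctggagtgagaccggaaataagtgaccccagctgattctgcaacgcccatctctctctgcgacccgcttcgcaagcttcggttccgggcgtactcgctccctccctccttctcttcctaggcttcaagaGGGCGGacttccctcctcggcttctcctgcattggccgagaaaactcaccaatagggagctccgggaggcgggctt
The capitals mark an E-box (CACGTG, the site of MYC and related factors) near the start of POLR1G, 4 GC boxes (GGGCGG on either strand) and 1 NRF1 motif (GCGCA, any base, then GCGC) upstream of POLR3K, and 1 GC box upstream of POLR3GL.

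Over all members, 6 motifs were searched on both strands of 42 windows, since some genes have several starts, and the shares were set beside those of all 35116 RefSeq windows. The E-box was in 14.3% of the member windows and in 6.34% of all windows, and it was held by GTF3C2, GTF3C4, GTF3C6, POLR1G, POLR3A and POLR3C. An ETS motif (CCGGAAG) was in 23.8% against 8.52%, and the NRF1 motif in 14.3% against 5.07%. The GC box was in 57.1% against 42.6%. A TATA box (TATAAA) was in 2.38%, the single window of GTF3C3, against 10.7%. The motif TGATGCAA, bound by ATF4 with its partners, was in 0 member windows and in 0.772% of all windows. None of the 6 motifs contains another in its letters. A match describes the letters of a window and not binding. The shares over windows of tested genes alone were not taken, so no excess particular to the members can be read from these values.

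The ASO target was lower in the cells given the CELF2 ASO. CELF2 had 128 and 128 CPM (read counts per adjusted library size, the unit of all levels here) in the control libraries and 56.6 and 48.8 with the CELF2 ASO, 2.43-fold lower (edgeR adjusted p = 3.74e-05). Total counts were between 23599190 and 29161298 per library. The control libraries lay closer together than the CELF2 ASO libraries, and the spread between libraries beyond counting error was 3.57% against 13.7%. The 10 plasma cell markers were all detected, with a summed level between 3523 and 4468 CPM over the 4 libraries, but they moved apart. SDC1, TNFRSF17, PRDM1 and MZB1 were called lower and CD38, IRF4, POU2AF1 and SLAMF7 higher, and the part of this in the result was not tested. T and NK cell markers summed to 40 to 54 counts per library and erythroid markers to 4 to 8. Myeloid markers summed to 140 and 124 counts in the controls and 75 and 70 with the CELF2 ASO, with LYZ, S100A8 and FCGR3A at 0 in all. Of the 7 stromal and epithelial markers, 6 were tested, of which VIM, EPCAM and COL1A1 were called lower and KRT8 higher, and KRT18 and PECAM1 were not called. Their summed level was 284 and 281 CPM in the controls and 170 and 183 with the CELF2 ASO, and the difference rested mainly on VIM (158 and 158 against 76.9 and 87.4 CPM) and EPCAM (62.2 and 63.7 against 37.7 and 30.3 CPM). The sum was lower alongside most members, and the part of these markers in the result was not tested.

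Most of the machinery was lower with the CELF2 ASO. Of the 36 members, 25 were called lower, 4 higher (POLR1D, TAF1D, POLR3D and BRF2) and 7 neither way, where a call is an adjusted p under 0.05 in edgeR's quasi-likelihood test over all genes. Across the 19511 genes tested, 28.0% were called lower and 27.6% higher, and among the 12754 protein-coding genes 35.4% were called lower and 28.0% higher. A call in either direction was made for 55.6% of all genes tested and 63.3% of protein-coding genes. The median log2 fold change (CELF2 ASO over control) was -0.48 over the members, -0.05 over protein-coding genes and 0.04 over all genes tested. The 2 CELF2 ASO libraries gave member medians of -0.49 and -0.51 against the control mean. The largest difference between the 2 CELF2 ASO libraries was 1.30-fold, in TAF1C, and between the 2 control libraries 1.19-fold, in TAF1B.

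The levels of the 2 groups did not overlap for 31 members, of which 26 were lower and 5 higher with the CELF2 ASO. Over all genes tested 38.4% lay apart and lower and 41.2% apart and higher, and over protein-coding genes 45.0% and 39.1%, so that groups lay apart in either direction for 79.6% and 84.0%. Summed over the 36 members, the control libraries held 3131 and 3119 CPM and the CELF2 ASO libraries 2163 and 2096. The genes of RNA polymerase I and its factors, shared subunits included, went from 1267 and 1266.5 CPM to 850 and 816. The genes of RNA polymerase III and its factors went from 1864 and 1852 CPM to 1313 and 1279.9. On the RNA polymerase I side 11 of 14 members were called lower and 2 higher, with a median log2 fold change of -0.63, and on the RNA polymerase III side 14 of 22 were lower and 2 higher, with a median of -0.44. Whether the sides differ from each other was not tested.

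**Figure D1:**
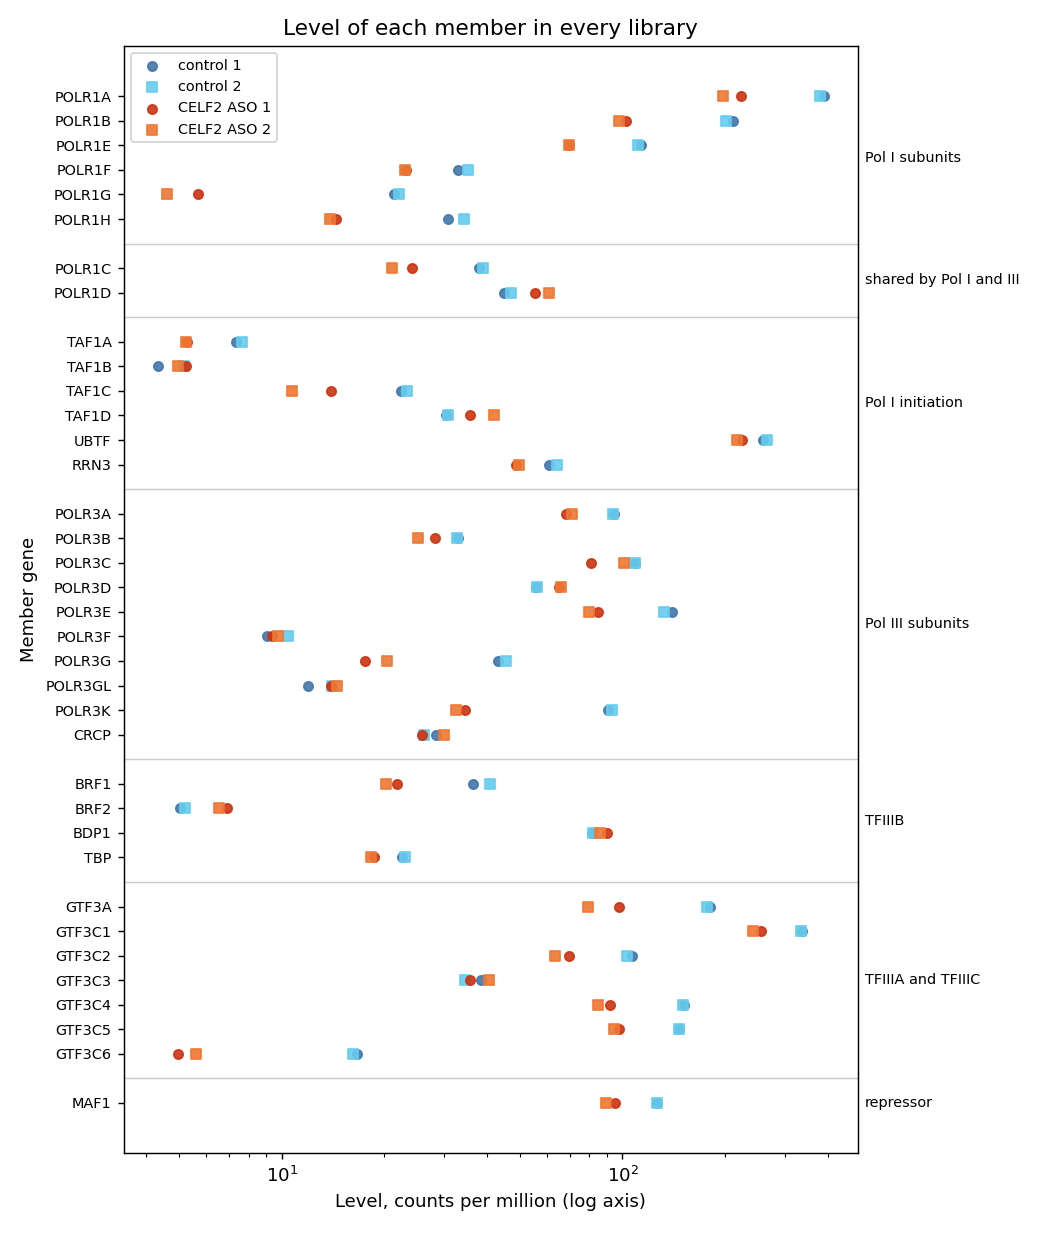
Level of each of the 36 members (vertical axis, grouped by role) in CPM on a log axis (horizontal); circles and squares in blue are the 2 control libraries, those in red and orange the 2 CELF2 ASO libraries. The red and orange points lie to the left of the blue points for 26 members and to the right for 5.

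All 6 genes for subunits that only RNA polymerase I uses were called lower, with a median log2 fold change of -0.96. POLR1A, the largest subunit and part of the catalytic centre (chromosome 2, 86020216 to 86106155, minus strand, GENCODE 29 on GRCh38), had 391 and 379.5 CPM in the control libraries and 223 and 197 with the CELF2 ASO, a 1.83-fold difference (log2 fold change -0.88, SE 0.08, edgeR adjusted p = 0.000123). POLR1B, the second catalytic subunit (chromosome 2, 112541915 to 112577150, plus strand), had 210.5 and 202 CPM in the control libraries and 103 and 97.5 with the CELF2 ASO, 2.06-fold lower (log2 fold change -1.04, SE 0.07, edgeR adjusted p = 3.61e-05). Both catalytic genes were thus lower in each CELF2 ASO library than in either control library, as were 45.0% of protein-coding genes tested. Their pairs of libraries lay close together.

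POLR1G, which joins POLR1E in a subunit pair on the outside of the enzyme, fell the most of all members. It had 21.4 and 22.03 CPM in the control libraries and 5.70 and 4.60 with the CELF2 ASO. The difference was 4.20-fold (log2 fold change -2.07, SE 0.14, edgeR adjusted p = 2.89e-05), and 1.59% of the genes tested had a lower log2 fold change. POLR1G lies on chromosome 19 from 45406209 to 45410766, plus strand, and 43.5% of its exon bases overlap exons of ERCC1 on the opposite strand. ERCC1 had 1094 and 856 counts in the controls and 916 and 830 with the CELF2 ASO. How the authors' counting treated reads in such overlaps is not given in the sources used here, so the level of POLR1G is uncertain.

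Its partner POLR1E had 114 and 111 CPM in the control libraries and 69.4 and 69.5 with the CELF2 ASO, 1.62-fold lower (edgeR adjusted p = 0.000178). POLR1H, a small zinc-binding subunit that helps to cleave the RNA of a stalled enzyme, had 30.7 and 34.2 CPM against 14.4 and 13.9, 2.29-fold lower (edgeR adjusted p = 8.35e-05). POLR1F, part of the stalk to which RRN3 binds, had 32.9 and 35.1 CPM against 23.1 and 23.0, 1.47-fold lower (edgeR adjusted p = 0.00159). The 6 genes thus differed in the size of their fall, from 1.47-fold for POLR1F to 4.20-fold for POLR1G.

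The 2 subunits shared by RNA polymerases I and III moved in opposite directions. POLR1C and POLR1D form the pair on which both enzymes are assembled, and mutations in either gene are a known cause of Treacher Collins syndrome. POLR1C had 38.0 and 39.0 CPM in the control libraries and 24.2 and 21.01 with the CELF2 ASO, 1.70-fold lower (log2 fold change -0.77, SE 0.10, edgeR adjusted p = 0.000589). POLR1D had 45.0 and 47.2 CPM in the control libraries and 55.5 and 60.8 with the CELF2 ASO, 1.26-fold higher (log2 fold change 0.34, SE 0.09, edgeR adjusted p = 0.0125). The call for POLR1D was lost without control library 1 (adjusted p = 0.218), without control library 2 (0.126) and after a correction for GC content and length (0.227, at a log2 fold change of 0.13).

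Among the initiation factors of RNA polymerase I, 4 of 6 were called lower and 1 higher, with a median log2 fold change of -0.30. UBTF, which binds along the active ribosomal DNA and holds it open, had 259 and 266 CPM in the control libraries and 223 and 216 with the CELF2 ASO, a 1.19-fold difference (edgeR adjusted p = 0.0166). RRN3, the growth-regulated factor that links the polymerase to its promoter complex, had 60.8 and 64.1 CPM against 48.9 and 49.6, 1.27-fold lower (edgeR adjusted p = 0.00757). RRN3 has near-identical copies in the genome: its pseudogene RRN3P2 had 20 and 20 counts in the controls and 122 and 105 with the CELF2 ASO, so its level is uncertain. Both factors had a smaller fold difference than any subunit of RNA polymerase I alone. Without control library 1 the calls were lost, at log2 fold changes of -0.30 for UBTF and -0.41 for RRN3. They were likewise lost without control library 2 (-0.26 and -0.33). With all libraries the values were -0.25 and -0.34. With libraries scaled by their totals alone the UBTF call was lost too (edgeR adjusted p = 0.158).

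The promoter selectivity factor SL1 combines TBP with TAF1A, TAF1B, TAF1C and TAF1D, and its TAF genes did not move together. TAF1C had 22.4 and 23.4 CPM in the control libraries and 13.95 and 10.7 with the CELF2 ASO, 1.85-fold lower (edgeR adjusted p = 0.00144). TAF1A had 7.32 and 7.67 CPM against 5.26 and 5.23, 1.43-fold lower (edgeR adjusted p = 0.0162). TAF1D had 30.4 and 30.8 CPM against 35.7 and 41.9, 1.27-fold higher (edgeR adjusted p = 0.0251), and it is host to several small nucleolar RNA genes, all listed at 0 here. TAF1B did not pass the test, with 4.32 and 5.16 CPM in the control libraries and 5.23 and 4.98 with the CELF2 ASO, and its groups overlapped. TBP, which RNA polymerases I, II and III all use, had 22.5 and 23.0 CPM against 18.6 and 18.2, 1.23-fold lower (edgeR adjusted p = 0.0294). Without control library 1 or 2, the calls were lost for TAF1A (adjusted p = 0.0784 and 0.114), TAF1D (0.21 and 0.18) and TBP (0.163 and 0.207). The TAF1D value was 0.34 on the log2 scale, and it was 0.049 after a correction for GC content and length (adjusted p = 0.668) and 0.20 without CELF2 ASO library 2 (0.021). The TAF1D call was also lost with no filter (0.0872). With DESeq2 the calls of both TAF1D (0.0717) and TAF1A (0.0512) were lost. With libraries scaled by their totals alone TBP was at -0.19 and no longer called (0.146).

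**Figure D2:**
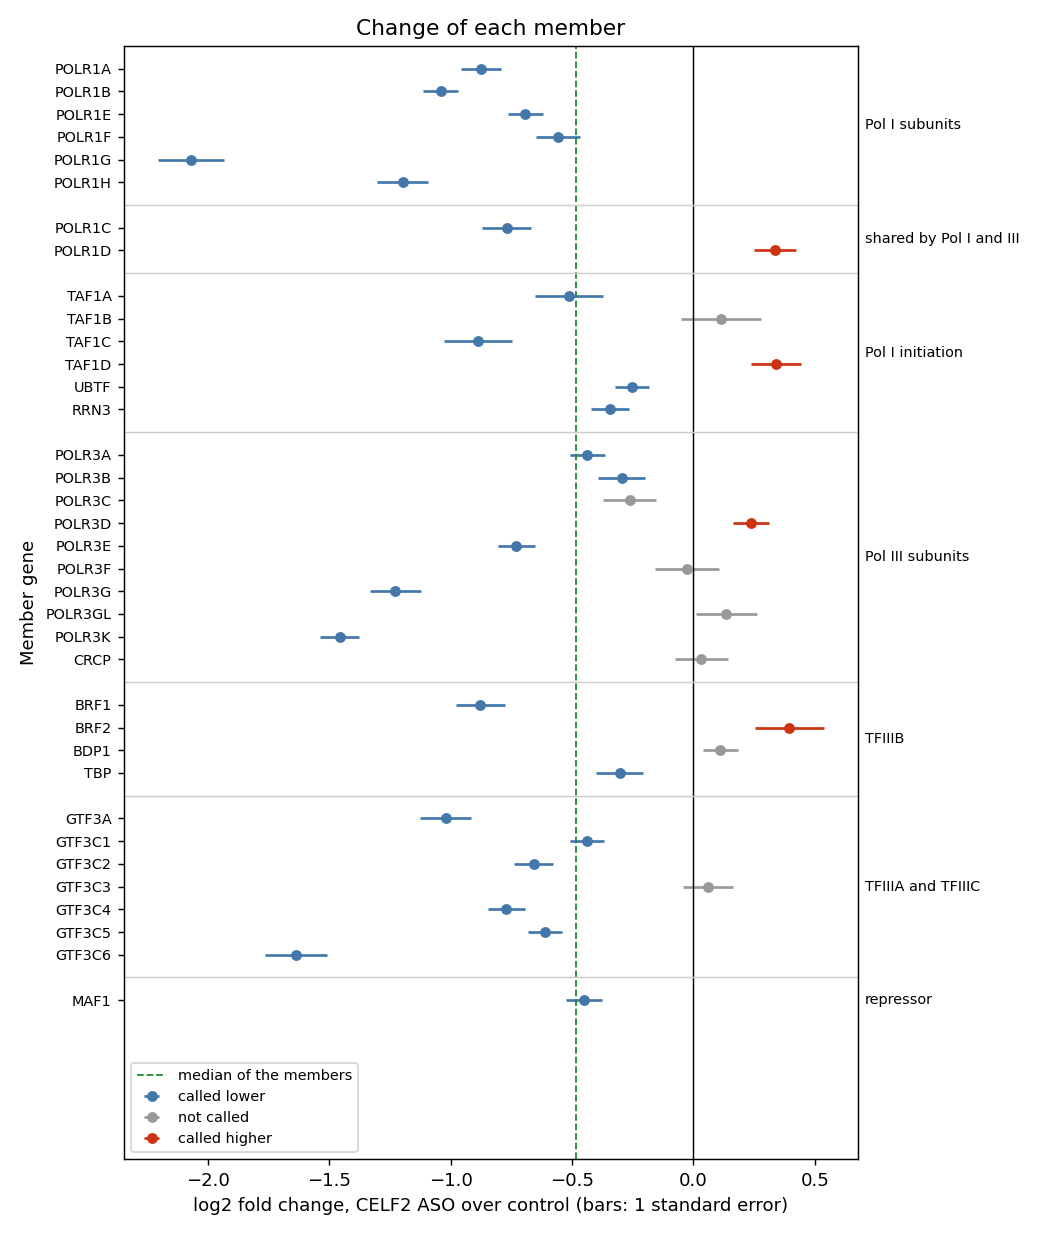
log2 fold change of each member, CELF2 ASO over control (horizontal axis), with bars of 1 standard error; blue points were called lower, red points higher and grey points neither way, and the dashed line is the members' median. The 6 subunits of RNA polymerase I alone all lie left of 0, from -0.56 to -2.07, while the 10 RNA polymerase III subunits run from -1.46 to 0.24.

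The 10 genes for subunits that only RNA polymerase III uses were more mixed, with 5 called lower, 1 higher and 4 neither way, and a median log2 fold change of -0.28. POLR3K, a small subunit that takes part in RNA cleavage and termination (chromosome 16, 46407 to 53628, minus strand), had 90.5 and 93.0 CPM in the control libraries and 34.5 and 32.4 with the CELF2 ASO. It was 2.74-fold lower (log2 fold change -1.46, SE 0.08, edgeR adjusted p = 1.48e-05), the smallest adjusted p of the 36 members. SNRNP25, which overlaps 8.10% of the exon bases of POLR3K from the opposite strand, had 4281 and 3461 counts in the controls and 773 and 609 with the CELF2 ASO. Reads of the 2 genes in the overlap cannot be told apart without a stated strand setting.

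The catalytic subunits of RNA polymerase III fell by less than POLR3K. POLR3A, the largest subunit, had 94.5 and 93.8 CPM in the control libraries and 68.3 and 70.9 with the CELF2 ASO, 1.35-fold lower (edgeR adjusted p = 0.0018). POLR3B, the second subunit, had 32.9 and 32.7 CPM against 28.3 and 25.2, 1.23-fold lower (edgeR adjusted p = 0.0338). The groups did not overlap for either gene, as for 84.0% of protein-coding genes tested. The POLR3B call was lost without control library 1 or 2 (log2 fold change -0.32 and -0.33). It was also lost with libraries scaled by their totals alone (adjusted p = 0.199), with the 1 CPM filter (0.0614) and with DESeq2 (0.065).

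POLR3D and POLR3E form another subunit pair of RNA polymerase III, which acts in initiation and termination, and they were called in opposite directions. POLR3E had 139 and 133 CPM in the control libraries and 84.7 and 79.5 with the CELF2 ASO, 1.66-fold lower (edgeR adjusted p = 0.000189). POLR3D had 55.7 and 56.0 CPM against 65.3 and 66.2, 1.18-fold higher (edgeR adjusted p = 0.0291). Both pairs of libraries lay close together for POLR3D, but its call was lost without control library 1 (adjusted p = 0.341) or 2 (0.331), with no filter (0.157), with DESeq2 (0.155) and after a correction for GC content and length (log2 fold change 0.15, adjusted p = 0.11).

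POLR3C, POLR3F and either POLR3G or POLR3GL make up a trio that contacts TFIIIB and melts the promoter. POLR3G, the form known to be abundant in stem cells and many tumour lines (chromosome 5, 90471748 to 90514553, plus strand), had 43.2 and 45.5 CPM in the control libraries and 17.5 and 20.4 with the CELF2 ASO. It was 2.34-fold lower (log2 fold change -1.23, SE 0.11, edgeR adjusted p = 7.89e-05). POLR3GL, the form found in most tissues (chromosome 1, 145964702 to 145978848, plus strand), had 11.9 and 14.1 CPM against 13.95 and 14.6, and it did not pass the test (log2 fold change 0.14, SE 0.13, edgeR adjusted p = 0.388). The POLR3G exons overlap those of MBLAC2 over 6.47% of their bases, and MBLAC2 had 465 and 368 counts in the controls and 1120 and 961 with the CELF2 ASO. The POLR3GL exons overlap another gene on the same strand over 21.2% of their bases, and that gene had 0 counts in every library. How reads in such overlaps were counted is not given in the sources used here.

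The other members of the trio were not called. POLR3C had 109 and 109 CPM in the control libraries and 80.7 and 101 with the CELF2 ASO (log2 fold change -0.26, edgeR adjusted p = 0.0765). Its 2 CELF2 ASO libraries differed from each other by more than the higher of them differed from the controls. Without CELF2 ASO library 2, POLR3C was called lower at a log2 fold change of -0.45, with the spread then taken from the control pair alone. With all 4 libraries it was also called lower by limma with group weights (-0.27, adjusted p = 0.0339) and after a correction for GC content and length (-0.35, adjusted p = 0.0246). POLR3F had 9.04 and 10.4 CPM against 9.34 and 9.75, and its groups overlapped. CRCP, a stalk subunit also known as a receptor component for calcitonin gene-related peptide, had 28.3 and 26.2 CPM against 25.9 and 30.0, and its groups overlapped too.

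Relative levels within a pair of genes were compared per kilobase of exon, so that the longer gene did not count for more. POLR3G made up 61.8% and 59.2% of the summed POLR3G and POLR3GL level in the control libraries, and 35.98% and 38.5% with the CELF2 ASO. Per kilobase of exon, the more abundant gene of the pair was thus POLR3G in both control libraries and POLR3GL in both CELF2 ASO libraries. In CPM, not divided by length, POLR3G stayed above POLR3GL with the CELF2 ASO (17.5 and 20.4 against 13.95 and 14.6). In 6 further pairs, chosen after their values were seen, the groups did not overlap either. Non-overlap was not counted over other pairs, and over single genes tested the groups lay apart for 79.6%. The RNA polymerase I gene's share of the largest subunits, POLR1A with POLR3A, was 73.2% and 72.8% in the control libraries and 68.3% and 64.7% with the CELF2 ASO. For the second subunits, POLR1B with POLR3B, it was 83.1% and 82.6% against 73.6% and 74.8%.

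POLR1C made up 63.0% and 62.6% of the POLR1C and POLR1D level in the control libraries and 46.8% and 41.1% with the CELF2 ASO. POLR1G made up 11.4% and 12.0% of the POLR1G and POLR1E level in the control libraries and 5.33% and 4.35% with the CELF2 ASO. BRF1 made up 60.3% and 62.2% of the BRF1 and BRF2 level in the control libraries and 39.7% and 39.4% with the CELF2 ASO. These BRF1 shares depend on the length used. BRF1 has 13167 exon bases but a longest transcript of 3809, against 2760 and 2603 for BRF2. In CPM, not divided by length, BRF1 stayed above BRF2 with the CELF2 ASO (21.8 and 20.3 against 6.92 and 6.53). Which gene was the more abundant is therefore not settled. The related cleavage subunits POLR1H and POLR3K went the other way, with POLR1H at 14.9% and 15.9% in the control libraries and 17.7% and 18.03% with the CELF2 ASO. For all 7 pairs the two-sided exact permutation p was 0.333, raw and adjusted, which is the smallest that 2 libraries against 2 allow.

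**Figure D3:**
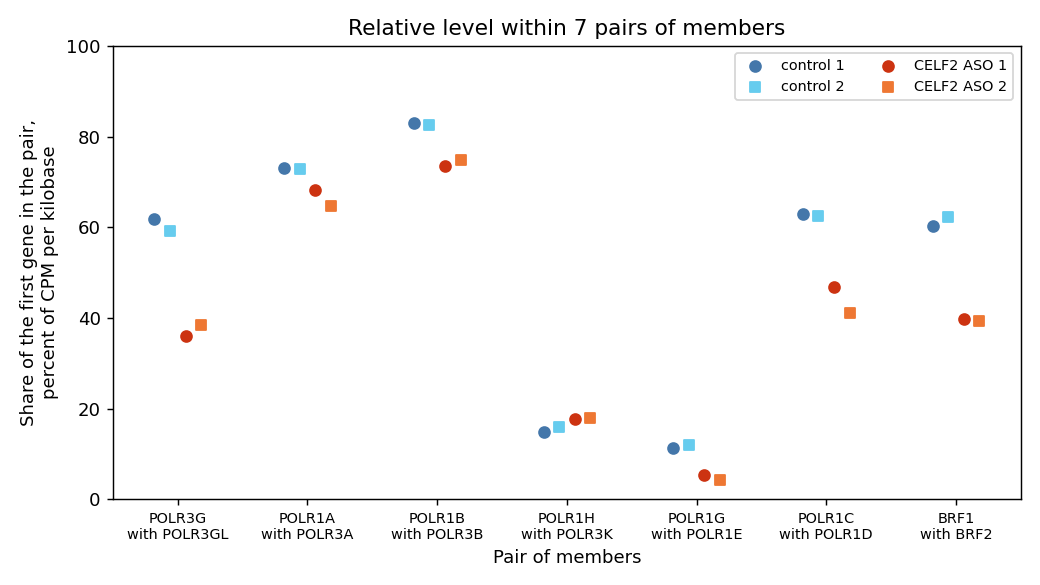
Share of the first gene of each pair in the pair's summed level per kilobase of exon (vertical axis, percent), 1 point per library, with control libraries in blue and CELF2 ASO libraries in red and orange. The share of POLR3G is 61.8% and 59.2% in the controls and 35.98% and 38.5%, while that of POLR1H beside POLR3K is 14.9% and 15.9% against 17.7% and 18.03%.

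TFIIIB, which recruits RNA polymerase III to the start site, consists of BDP1, TBP and either BRF1 or BRF2. BRF1, used at transfer RNA and 5S genes, had 36.4 and 40.8 CPM in the control libraries and 21.8 and 20.3 with the CELF2 ASO, 1.84-fold lower (log2 fold change -0.88, SE 0.10, edgeR adjusted p = 0.000305). BRF2, used at U6 and similar genes with an upstream promoter, had 5.04 and 5.20 CPM against 6.92 and 6.53, 1.32-fold higher (log2 fold change 0.40, SE 0.14, edgeR adjusted p = 0.0484). The BRF2 call lay just inside the threshold and was lost in 9 of 13 alternative analyses, among them without control library 1 (adjusted p = 0.303) or 2 (0.241) and without CELF2 ASO library 1 (0.0649). ADGRA2, on the opposite strand, overlaps 59.0% of the BRF2 exon bases and had 50 and 44 counts in the controls and 169 and 102 with the CELF2 ASO.

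BDP1 had 81.2 and 82.0 CPM in the control libraries and 89.9 and 86.2 with the CELF2 ASO, and it did not pass the test (log2 fold change 0.11, edgeR adjusted p = 0.231). The groups of BDP1 did not overlap, as for 84.0% of protein-coding genes tested. Its direction depended on the scaling: it was called higher when libraries were scaled by their totals alone (log2 fold change 0.23, adjusted p = 0.0466) and had a value of -0.19 after a correction for GC content and length. With TBP lower, as given above, TFIIIB thus had 2 genes called lower, 1 higher and 1 neither way.

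TFIIIA and TFIIIC bind the internal promoters of 5S and transfer RNA genes, and 6 of their 7 genes were called lower, with a median log2 fold change of -0.66. GTF3A, the zinc finger protein that recognises the 5S gene, had 181 and 177 CPM in the control libraries and 97.4 and 79.1 with the CELF2 ASO, 2.03-fold lower (log2 fold change -1.02, SE 0.10, edgeR adjusted p = 0.000179). GTF3C6, the smallest TFIIIC subunit (chromosome 6, 110958560 to 110967890, plus strand), had 16.6 and 16.2 CPM against 4.98 and 5.61. It was 3.11-fold lower (log2 fold change -1.64, SE 0.13, edgeR adjusted p = 5.38e-05), second only to POLR1G in size among the members.

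The larger TFIIIC genes fell by less. GTF3C1, the largest subunit and a binder of the B box of transfer RNA genes, had 337 and 334 CPM in the control libraries and 255 and 241 with the CELF2 ASO, 1.35-fold lower. GTF3C2 had 107 and 103 CPM against 69.7 and 63.5, 1.58-fold lower. GTF3C4 had 151 and 150.1 CPM against 92.1 and 84.6, 1.71-fold lower, and GTF3C5 had 146 and 147 against 97.4 and 94.5, 1.53-fold lower. Their edgeR adjusted p-values lay between 0.000149 (GTF3C4) and 0.00154 (GTF3C1). GTF3C3, a scaffold of the complex that contacts TFIIIB, was the exception, with 38.5 and 34.6 CPM against 35.8 and 40.5, overlapping groups and an edgeR adjusted p of 0.641.

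MAF1, the repressor that binds RNA polymerase III when nutrients or growth signals are low, was lower too. It had 126 and 126 CPM in the control libraries and 95.2 and 89.7 with the CELF2 ASO, a 1.37-fold difference (log2 fold change -0.45, SE 0.07, edgeR adjusted p = 0.00158). After a correction for GC content and length the call was lost (log2 fold change -0.14, adjusted p = 0.134).

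In all, 7 members were at least 2-fold lower and called: POLR1B, POLR1G, POLR1H, POLR3G, POLR3K, GTF3A and GTF3C6. Over all genes tested, 11.2% were called lower by at least 2-fold, and over protein-coding genes 12.2%. No member was called higher by 2-fold, and the largest rise was the 1.32-fold of BRF2. On the scale of CPM per kilobase of exon, the members with the highest control level were GTF3A (59.6), MAF1 (53.1), POLR3K (48.6), POLR1E (44.7) and GTF3C5 (40.8). With the CELF2 ASO these 5 had 29.4, 38.9, 17.7, 27.7 and 26.7. The lowest control levels were those of TAF1B (1.17), BRF2 (1.85), TAF1A (2.59), BRF1 (2.93) and POLR3F (3.33), the last an RNA polymerase III subunit. The BRF1 level was divided by 13167 exon bases, while its longest transcript has 3809, so its place depends on the length used.

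Gene length and GC content were set beside the changes as a description, since both can move counts between libraries. Across the 36 members, the log2 fold change had a Pearson r of 0.21 with log2 exon length and of -0.18 with GC percent (Spearman 0.09 and -0.15). These points share their 4 libraries, and genes are not independent replicates. Across protein-coding genes the Pearson values were 0.13 for length and -0.19 for GC. Of the 18 shorter members 12 were called lower, with a median log2 fold change of -0.54, and of the 18 longer ones 13, with a median of -0.44.

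The genes around the machinery were described from lists drawn up by function, with earlier results of these data known. The other common subunits, which RNA polymerases I and III share with RNA polymerase II, made a list of 5, all called lower, with a median log2 fold change of -1.53. POLR2F was 3.69-fold lower (149 and 155 CPM in the control libraries, 45.3 and 36.9 with the CELF2 ASO). POLR2L was 3.98-fold lower, from 143 and 162 to 43.7 and 32.9 CPM, and POLR2E 2.89-fold lower, from 333 and 349.5 to 128 and 108 CPM. Their edgeR adjusted p-values lay between 1.69e-05 (POLR2F) and 4.13e-05 (POLR2L). The lower level thus extended to subunits that every nuclear RNA polymerase contains.

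RNA polymerase II's own subunits and factors serve as a comparison. Of its 7 specific subunit genes 6 were called lower and 0 higher, with a median of -0.72. POLR2A, the largest subunit, was 1.65-fold lower, POLR2C 1.83-fold and POLR2J 1.76-fold. Of 23 tested general factors and TAFs of RNA polymerase II, 8 were called lower and 3 higher, with a median of -0.06. Among these GTF2A2 was 1.97-fold and TAF9 1.49-fold lower, and TAF8 was 1.59-fold higher. The share called lower was 34.8% for the general factors and TAFs, close to the 35.4% of protein-coding genes tested. Whether any of these lists differs from the RNA polymerase I and III genes was not tested.

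Partners that act with the 2 enzymes were also mostly called lower, in lists of few genes. Among protein-coding genes tested, 35.4% were called lower and 28.0% higher. Of 17 genes for ribosomal DNA chromatin and RNA polymerase I cofactors, 12 were called lower and 0 higher, with a median of -0.43. NPM1, an abundant nucleolar protein, was 2.20-fold lower, TCOF1, the nucleolar protein treacle, 2.23-fold, and MYBBP1A 2.72-fold. Of 7 genes for SNAPc, which recognises U6-type promoters, and its partners 4 were called lower and 0 higher, with a median of -0.38, and SNAPC4 was 2.47-fold, SNAPC2 2.27-fold and ZNF143 1.48-fold lower. No gene of either list was called higher.

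Of 16 genes that bind or process RNA polymerase III transcripts, 9 were called lower and 1 higher, with a median of -0.61. POP1, a protein of RNase P and RNase MRP, was 3.57-fold lower, RPP25, another, 2.43-fold, and ELAC2, which trims the 3′ end of transfer RNA precursors, 2.28-fold. The gene called higher was XPOT, the transfer RNA export factor, named after its value was seen. It had 182 and 180.2 CPM in the control libraries and 406 and 371 with the CELF2 ASO, 2.15-fold higher (edgeR adjusted p = 3.37e-05). Of 11 upstream regulators 5 were called lower and 3 higher, with a median of -0.09. Beside both lists, 35.4% of protein-coding genes tested were called lower and 28.0% higher. MAPK3, a kinase of growth signalling, was 1.74-fold and CSNK2B, a subunit of casein kinase, 2.05-fold lower. The 21 genes named from these 7 lists kept their call and direction in each of the 13 alternative analyses. They were named for small adjusted p-values or, for XPOT, after its value was seen. Their choice favoured stable calls, and this does not speak for the rest of the lists.

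**Figure D4:**
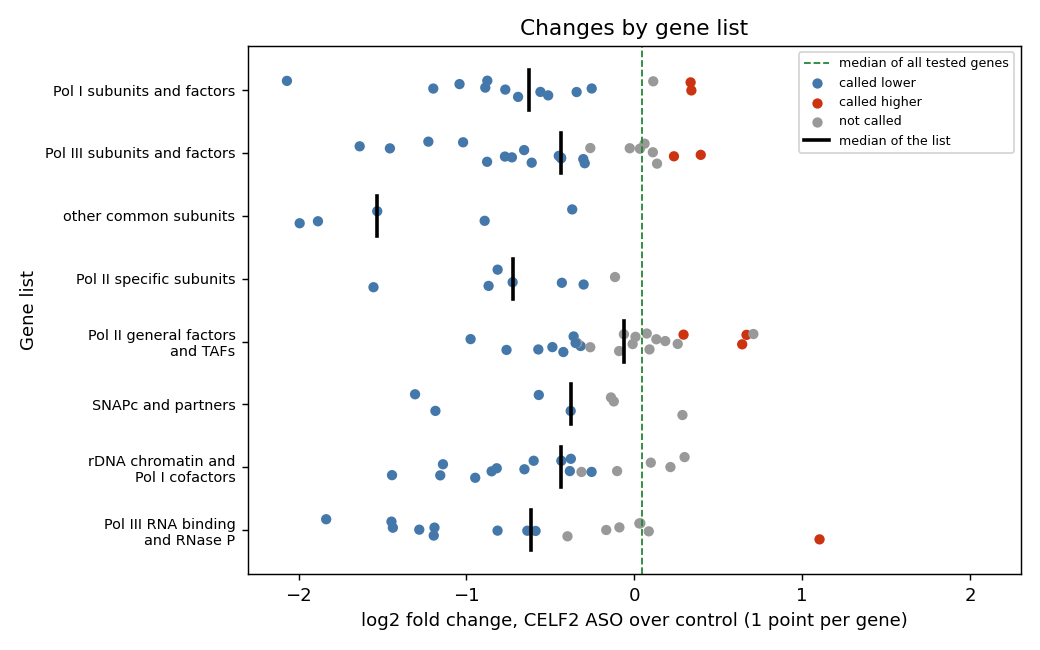
log2 fold change, CELF2 ASO over control (horizontal axis), of every tested gene in 8 lists (1 point per gene; blue called lower, red higher, grey neither way), with a black bar at each list's median and a dashed line at the median of all genes tested, 0.04. The medians run from -1.53 for the other common subunits to -0.06 for the RNA polymerase II general factors.

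The products of the 2 enzymes were measured poorly. For the products of RNA polymerase I, 8 gene symbols were sought and 0 matched a row, so they could not be analysed here. Of 22 RNA polymerase III products with a row, 7 passed the filter, and 9 were listed at 0 in every library, among them RN7SK, RMRP, RPPH1 and RNA5S1. RN7SL1, a 7SL gene, had 32381 and 26550.0 CPM in the control libraries and 41999.5 and 47071 with the CELF2 ASO, 1.51-fold higher (log2 fold change 0.60, SE 0.12, edgeR adjusted p = 0.00377). That call was lost without control library 2 (adjusted p = 0.118), without CELF2 ASO library 1 (0.221) and without CELF2 ASO library 2 (0.298). RNU6-1, a U6 gene, had 21 and 35 counts in the controls and 14 and 9 with the CELF2 ASO (edgeR adjusted p = 0.0398), a call lost in 6 of the 12 alternatives that gave it a value, among them without control library 2 (adjusted p = 0.258).

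Near-identical copies of 7SL and U6 genes make both values uncertain. The labels describe the library preparation both as poly(A) selection and as removal of ribosomal RNA, and these keep RNAs without a poly(A) tail to different degrees. The levels of such RNAs relative to mRNA therefore have no fixed meaning here, and they measure RNA present at 72 hours, not transcription by either enzyme.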

How the data were processed

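RNA from 4 libraries of RPMI 8226 cells was analysed from the authors' deposited table of whole-number read counts per Ensembl gene. The submitters' processing notes name STAR 2.7.11b, featureCounts 2.0.8, Salmon 1.10.0, Subread and bcl2fastq, with the GRCh38 build. No annotation, strand setting or treatment of multi-mapping reads is given in the sources used here. Of 79029 rows, 97 that name no Ensembl gene (1 to 3 counts per library) were left out, and 0 columns of values were unused. Total counts were 29161298 and 24493148 (control) and 26061900 and 23599190 (CELF2 ASO).

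Genes passing filterByExpr (minimum count 10, minimum total 15) were scaled by TMM and compared with edgeR 4.0.16 in R 4.3.3 by its robust quasi-likelihood test (two-sided), with Benjamini-Hochberg adjustment over all 19511 genes, at 0.05. The SE is the absolute log2 fold change over the square root of F. Libraries within each pair differed beyond sampling noise (chi-square per degree of freedom 3.73 and 22.5). Per-kilobase levels use exon unions of GENCODE 29, which held all 36 members. Motifs were counted in RefSeq promoter windows.

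The comparison was tested on simulated data in which 200 genes were changed and 18786 passed the filter. Of 60 genes changed 1.5-fold it recovered 19, of 64 changed 2-fold 52, and of 63 changed 4-fold 62, and it made 10 false calls. Far fewer genes changed there than were called in the real data, so the shares recovered describe the simulated setting only. The members and lists were chosen with earlier results of these data known, so counts over them are descriptions. Any member could be named. From every other list up to 3 genes with the smallest adjusted p were named, and XPOT was named after its value was seen. Some genes of the other lists are not reported here. The alternatives were RLE scaling, library totals alone, no filter, a filter of 1 CPM in 2 libraries, DESeq2 1.42.0, limma-voom (limma 3.58.1), a replicate block and leaving out each library. Group weights in limma and a correction for GC content and length were added after seeing the data.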

Additional observations from a re-analysis of the deposited data

How the results depend on the processing

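Of the 25 members called lower, 19 kept the call in all 13 alternatives and none changed sign. The call was lost at least once for TAF1A, UBTF, RRN3, POLR3B, TBP and MAF1. All 4 members called higher lost the call at least once. The number of members called lower was 22 to 26 outside the leave-one-out analyses and 20 to 26 within them (20 when either control library was left out), with 8 to 11 on the RNA polymerase I side and 12 to 15 on the RNA polymerase III side. Members called higher, 4 as reported, numbered 1 with no filter, 1 with DESeq2, 2 with the replicate block and 1 after the GC and length correction, and 0 to 4 when a library was left out (0 when it was either control library). Over all genes, calls in the higher direction ran from 3564 (without control library 1) to 6214 when a library was left out. The members' median log2 fold change, -0.48 as reported, was -0.51 with RLE scaling, -0.36 with library totals alone, -0.54 with no filter, -0.43 with the 1 CPM filter, -0.51 with DESeq2 and -0.54 after the GC and length correction, and -0.53 to -0.49 when a library was left out. Library totals alone moved the median of all genes by 0.12 and the GC and length correction by -0.11.

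Members that were not called changed sign in places. After the GC and length correction TAF1B had -0.044, CRCP -0.044, BDP1 -0.19 and GTF3C3 -0.15. POLR3F had 0.088 with library totals alone and 0.025 with the 1 CPM filter, and CRCP -0.023 with no filter. When a library was left out, values ran from -0.043 (control library 1) to 0.21 for TAF1B, from -0.16 to 0.052 (control library 2) for POLR3F, from -0.0093 (control library 1) to 0.23 for POLR3GL, from -0.10 (CELF2 ASO library 2) to 0.14 for CRCP and from -0.052 (CELF2 ASO library 2) to 0.15 for GTF3C3. The cause was not tested for any of these.

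No shift shared by same-numbered libraries was visible: their deviations had a correlation of 0.03 over 19511 genes. With 2 libraries per group this cannot show whether the libraries were paired. With the replicate block 5411 genes were called higher and 5379 lower, 24 members were lower and 2 higher, and the calls of POLR3D (adjusted p = 0.062), BRF2 (0.0682) and TBP (0.0517) were lost. Of the other lists, RNA polymerase II general factors called lower numbered 4 when either control library was left out and those called higher 5 without CELF2 ASO library 1. Upstream regulators called lower numbered 3 with library totals alone and 3 without control library 1, and those called higher 1 without control library 1. Ribosomal DNA cofactors called higher numbered 1 with library totals alone, 1 with the 1 CPM filter and 2 without CELF2 ASO library 1.

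Where a library was left out, the lone library of its group was assumed to vary like the other group. Without a control library the spread thus came from the CELF2 ASO pair, the wider of the 2 (13.7% against 3.57%). Precision was lower for members with few counts: the SE of the log2 fold change was 0.16 for TAF1B, with 119 to 145 counts per library, and 0.07 for UBTF, with 5165 to 7238. With 2 libraries per group, a missed call for the 7 other members does not show equal levels. The simulation changed 200 genes, whereas 55.6% of all genes tested were called in the real data. Its share of missed 1.5-fold changes therefore does not carry over to this comparison.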
